A study of Mus musculus with 10 samples.

Results

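Fc receptors bind the constant part of antibodies and connect antibody-coated targets to the cells that clear them. On neutrophils, activating Fc gamma receptors bind IgG and signal through the shared gamma chain encoded by Fcer1g, whose tyrosine motif recruits kinases of the Src and Syk families and leads to phagocytosis and the oxidative burst. The inhibitory receptor Fcgr2b opposes this signal through phosphatases, and the neonatal receptor Fcgrt carries IgG through endosomes and protects it from breakdown. The 6 mouse genes described here are the activating receptors Fcgr1, Fcgr3 and Fcgr4, the gamma chain gene Fcer1g, the inhibitory receptor Fcgr2b and the neonatal receptor Fcgrt. They are 6 of 20556 gene names in the peak tables, and their peaks are all those whose annotated gene name is one of the 6, which gave 73 of 246468 consensus peaks.

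The libraries came from neutrophils sorted from mice and not cultured, and chromatin was immunoprecipitated for 4 histone marks (ChIP-seq). KO stands for Morrbid-deficient mice on a C57BL6 background, and WT for wild-type C57BL6 mice. Morrbid is a long non-coding RNA of myeloid cells. H3K4me3 marks promoters, H3K27ac active promoters and enhancers, H3K4me1 enhancers, and H3K36me3 the bodies of transcribed genes. Each mark had 1 KO and 1 WT library, so the differences have no replicate check and no p-value can be given. Age, sex, the number of animals and the form of the Morrbid allele are not given in the labels.

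Values are the authors' normalized reads per consensus peak, and a gene's value is the sum over its peaks. Changes are log2(KO/WT) with a pseudocount of 1, minus the median over all peaks of the mark, and brackets after a change give the 95% counting interval from the reads behind both values. These intervals cover counting error between 2 libraries only, and reads are not independent molecules. The KO libraries were deeper in peaks, by 3.85 times for H3K4me3, 4.56 times for H3K27ac, 5.87 times for H3K4me1 and 1.13 times for H3K36me3, and the WT library therefore sets the precision. Reads in peaks ranged between 10265524 and 14317664 in the KO libraries and between 2250264 and 11618230 in the WT libraries. The targeted gene, listed as Gm14005, went with the labels, since 48 of its 99 peaks were at the KO minimum of 1 read and its H3K36me3 sum was 739 in the KO against 4809 in the WT. By annotated gene name, 10 of 12 neutrophil markers carried H3K4me3 peaks, with none named for Ly6g and S100a8, and no peak of any mark was named for Ly6g. Each peak has 1 gene name. S100a9 held 4707 normalized H3K4me3 reads in the WT and no H3K27ac peak, while S100a8 held 5789 normalized H3K27ac reads in the WT. A missing name is therefore not shown to be a lack of the mark.

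Promoters of 4 of the genes are shown because the peaks of several marks span their starts and because they differ in the motifs of myeloid and interferon-responsive factors. The sequences are the 250 bases before the RefSeq start in GRCm38.p6, read along the gene's strand, at chr3:96293970-96294219 (minus strand, Fcgr1), chr1:171059404-171059653 (minus, the first of the Fcgr3 starts), chr1:171018676-171018925 (plus, Fcgr4) and chr1:171234350-171234599 (minus, Fcer1g). Capitals mark motif matches on either strand.
Fcgr1: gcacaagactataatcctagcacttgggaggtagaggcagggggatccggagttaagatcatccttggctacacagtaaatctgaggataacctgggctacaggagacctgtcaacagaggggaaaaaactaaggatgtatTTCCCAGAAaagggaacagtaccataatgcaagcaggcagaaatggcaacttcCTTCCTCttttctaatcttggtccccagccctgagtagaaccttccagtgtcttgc
Fcgr3: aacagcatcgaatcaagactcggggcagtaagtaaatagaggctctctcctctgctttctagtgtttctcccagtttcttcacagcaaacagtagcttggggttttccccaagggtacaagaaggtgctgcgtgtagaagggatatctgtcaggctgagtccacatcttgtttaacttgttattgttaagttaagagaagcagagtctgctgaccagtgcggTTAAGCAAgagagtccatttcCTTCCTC
Fcgr4: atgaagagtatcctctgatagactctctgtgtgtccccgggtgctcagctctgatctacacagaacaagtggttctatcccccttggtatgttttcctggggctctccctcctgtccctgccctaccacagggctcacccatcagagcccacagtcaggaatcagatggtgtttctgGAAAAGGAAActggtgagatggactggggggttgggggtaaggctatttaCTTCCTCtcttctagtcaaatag
Fcer1g: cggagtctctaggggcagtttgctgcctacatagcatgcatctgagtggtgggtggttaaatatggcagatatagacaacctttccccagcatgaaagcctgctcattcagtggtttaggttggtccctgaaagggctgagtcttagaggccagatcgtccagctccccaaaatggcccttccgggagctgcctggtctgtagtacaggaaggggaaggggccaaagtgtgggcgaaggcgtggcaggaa
The PU.1/ETS motif GAGGAAG, here on the opposite strand as CTTCCTC, began 56 bases before the start of Fcgr1, 7 before that of Fcgr3 and 23 before that of Fcgr4. All 3 activating receptors thus held it, as did 10.6% of the 32851 promoters in the same table. Fcgr1 also held the interferon-gamma-activated site TTCNNNGAA at 109 bases, which 7.02% of promoters hold. Fcgr4 held the interferon-stimulated response element (GAAA, 2 bases of any kind and GAAA again) at 73 bases, which 2.98% hold. A C/EBP match (TTGCNNAA, in 9.56% of promoters) lay 28 bases before the Fcgr3 start and 239 bases before the Fcgrt start. The promoters of Fcer1g and Fcgr2b held none of the 6 motifs searched, which also included the AP-1 motif TGANTCA, in 6.75% of promoters. The sixth, TATAAA of the TATA box, was in 12.4% of promoters. No match overlapped another, and a match is a run of letters, not evidence of binding.

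The activating receptor Fcgr3 and the gamma chain gene Fcer1g carried the densest H3K4me3 of the group in both genotypes. Levels between genes were compared as normalized reads per kb of all peaks annotated to a gene, which for Fcgr3 include an intergenic H3K4me3 peak. For H3K4me3 these were 133 for Fcgr3, 130.1 for Fcer1g, 68.6 for Fcgr4, 49.9 for Fcgr2b and 42.8 for Fcgr1 in KO neutrophils. WT neutrophils had 123 for Fcer1g, 114 for Fcgr3, 56.8 for Fcgr4, 35.97 for Fcgr2b and 32.3 for Fcgr1. Fcgr3 and Fcer1g exchanged places within their counting intervals, and Fcgr2b and Fcgr1 overlapped in the WT. For H3K27ac the order was led by Fcer1g, with 117 in the KO against 115 in the WT, before Fcgr4 with 86.0 in the KO and 81.8 in the WT. Fcgr1 was low in H3K27ac, at 24.1 in the KO against 23.8 in the WT. H3K36me3 was densest at Fcgr3, with 73.9 per kb in the KO against 70.3 in the WT, at or above 99.4% of all genes with that mark in the KO and 98.8% in the WT. H3K4me1 was also densest at Fcgr3, at 55.7 in the KO against 66.9 in the WT, while the other 4 genes with this mark lay between 42.4 and 48.2 in the KO and between 43.3 and 46.6 in the WT. The counting intervals of Fcgr3 and of Fcer1g, the next in that order, overlapped in both genotypes. Fcgr1 had no H3K36me3 peak, and Fcgrt had a peak of H3K27ac alone.

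**Figure D1:**
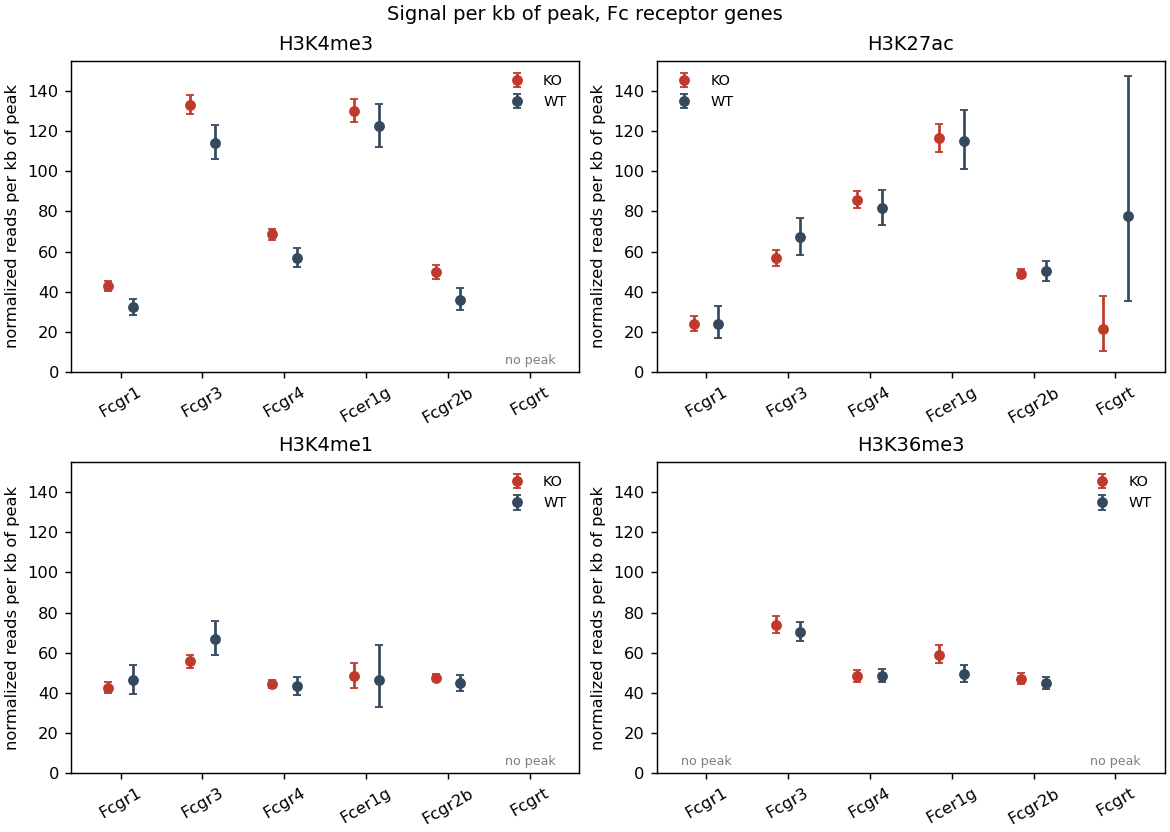
Normalized reads per kb of peak for each Fc receptor gene and mark in the KO (left point of each pair) and WT (right point) library, with 95% counting intervals. Fcgr3 and Fcer1g lead H3K4me3, Fcer1g leads H3K27ac, and the wide WT interval of Fcgrt comes with 9 reads.

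Summed over their peaks, 5 of 5 Fc receptor genes with H3K4me3 peaks had more of this mark in the KO, beside 60.2% of all genes. More H3K27ac was found at 3 of 6, beside 52.5%, more H3K4me1 at 3 of 5, beside 50.5%, and more H3K36me3 at 3 of 4, beside 44.7%. These counts go by annotated gene name. The H3K36me3 count includes Fcer1g through a peak outside the gene, and the peak over its body had -0.03. The H3K4me3 count leaves out Fcgrt, where a peak in intron 4, annotated to Rcn3, had -0.04 from 7 WT reads. The H3K4me3 changes had a median of 0.25 and ran between 0.07 at Fcer1g and 0.46 at Fcgr2b, and 4 of the 5 intervals lay above 0. Over all 18050 genes with this mark the median was 0.07. The share of all genes with an interval above 0 was not computed. Set against genes of similar signal, a centring that removes the drift of the change with signal strength, the members' median was 0.17, 4 of 5 changes and 3 of 5 intervals lay above 0, and Fcer1g was at -0.01. Thinning the KO reads to WT depth gave -0.02 for Fcer1g. Neutrophil markers had a median H3K4me3 change of 0.21 and summed to 25408 in the KO against 21423 in the WT (log2 0.23). The depth gap between the H3K4me3 libraries goes with genotype, so its part in these values cannot be told apart from that of genotype. More cells carrying a mark and more mark per cell cannot be told apart either.

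No member reached a 1.5-fold change in H3K4me3, where 7.97% of all genes passed it upwards and 11.4% downwards. Most such genes had low sums, and among genes at or above the median sum the shares were 0.72% higher and 0.299% lower. In H3K27ac 1 of 6 members, Fcgrt, was at least 1.5-fold lower, beside 5.33% of all genes higher and 15.5% lower, and 0.713% and 0.287% among genes at or above the median sum. None of 5 members passed 1.5-fold in H3K4me1, beside 4.24% higher and 11.2% lower, and 0.158% and 0.285% above the median sum. In H3K36me3 none of 4 passed it, beside 5.68% and 3.11% of all genes, and 0.0628% and 0.141% above the median sum. The members' medians for these marks were -0.01, 0.02 and 0.06, against 0.02, 0.00 and -0.02 over all genes. A count model could not be fitted to 1 library per group, so none of these counts comes from a test.

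**Figure D2:**
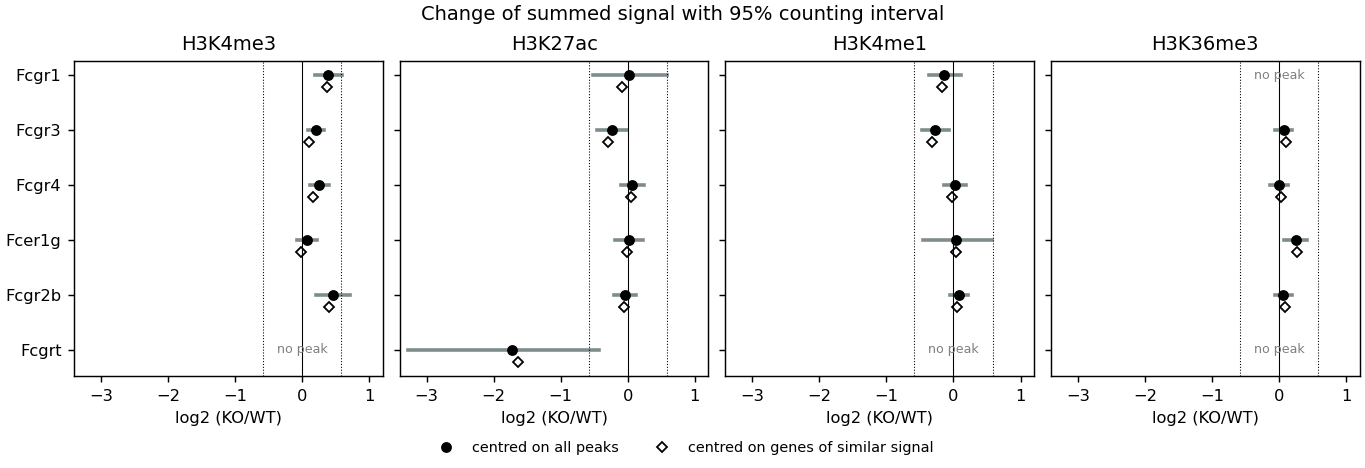
Change of each gene's summed signal, log2(KO/WT), in 1 panel per mark, with 95% counting intervals as bars. Filled points are centred on all peaks of the mark, open diamonds on genes of similar signal, and dotted lines mark 1.5-fold. All 5 filled H3K4me3 points lie right of 0 and inside the dotted lines, and the open diamond of Fcer1g lies at -0.01.

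Fcgr1 encodes the high-affinity IgG receptor, which neutrophils raise in response to interferon gamma. Its H3K4me3 peaks summed to 806 normalized reads in KO neutrophils against 609.5 in WT neutrophils, a log2 change of 0.39 (0.19 to 0.59) over 7 peaks. Most of that difference lay far from the promoter. An intergenic peak of 10.01 kb, centred 37.2 kb before the start at chr3:96130068-96140077 (mm9, as for all peaks below), held 498 normalized reads in the KO library against 325 in the WT library, a change of 0.60 (0.34 to 0.87). Without this peak, chosen after its values were seen, the other 6 summed to 308 in the KO against 285 in the WT, a change of 0.10 (-0.19 to 0.40). At the start itself (chr3:96097246-96097937) H3K4me3 was low, with 22.7 normalized reads in the KO library against 7.06 in the WT library. That difference of 1.54 (0.01 to 4.02) rests on 35 KO and 3 WT reads. In the RefSeq gene order of GRCm38.p6, 4 tRNA genes and Gm24830 lie between Fcgr1 and Platr30. Whether the distal peak covers them was not tested, since the coordinates are of another build. An H3K27ac peak inside the distal peak, chr3:96132207-96132637, is annotated as a U1 snRNA repeat.

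The Fcgr1 start carried little H3K4me3 but dense H3K4me1. The H3K4me1 peak at chr3:96096294-96098763 had 71.2 normalized reads per kb in the KO against 81.1 in the WT, at or above 99.5% of all H3K4me1 peaks in both. Its normalized reads were 176 in the KO against 200.4 in the WT, a change of -0.20 (-0.60 to 0.23), not detectable at this depth. H3K27ac over the same start was 42.5 in the KO against 44.0 in the WT. Summed over the gene, H3K27ac was 100.4 in the KO against 99.1 in the WT (0.02, -0.51 to 0.58), and H3K4me1 was 532 in the KO against 581 in the WT (-0.13, -0.37 to 0.11).

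**Figure D3:**
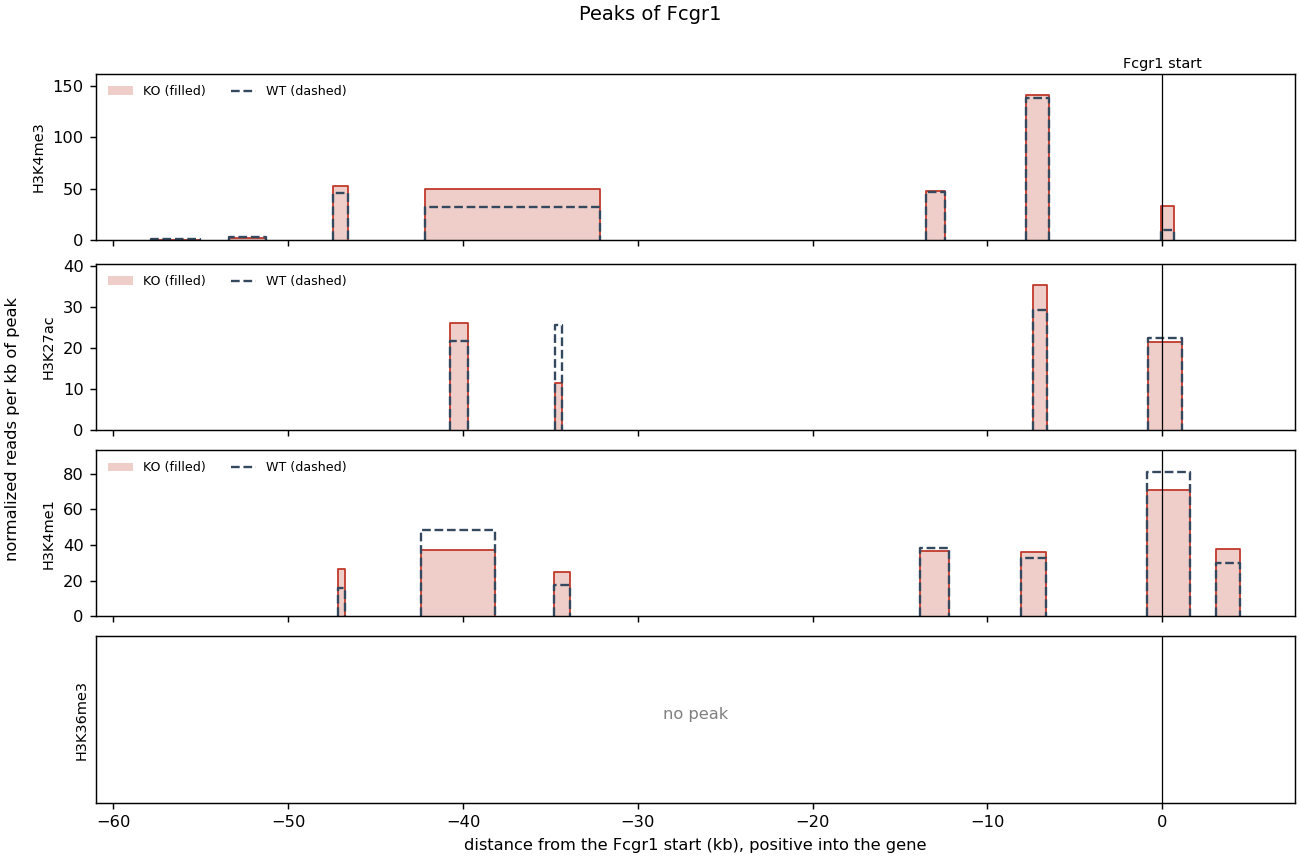
Peaks annotated to Fcgr1 by distance from its start in kb, positive into the gene, with height as normalized reads per kb of peak (KO filled, WT dashed). H3K4me3 is low at the start, where H3K4me1 is dense, and the wide peak near -37 kb is higher in the KO.

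Fcgr3 encodes a low-affinity activating receptor and had a start that the deposited distances place at position 172989534 of chromosome 1 (mm9). Summed H3K4me3 was 1919 in the KO against 1645 in the WT, a change of 0.21 (0.09 to 0.33), and 0.10 (-0.02 to 0.22) against genes of similar signal. A peak of 13.1 kb across the start and most of the gene, chr1:172979125-172992207, held 1670.0 normalized reads in the KO library against 1464 in the WT library and was as wide as or wider than 99.5% of all H3K4me3 peaks. In the RefSeq gene order of GRCm38.p6, 3 tRNA genes and Mir6546 lie within Fcgr3, and their part in this peak was not tested. H3K27ac and H3K4me1 went the other way at Fcgr3. Summed H3K27ac was 485 in the KO against 573 in the WT, a change of -0.24 (-0.47 to -0.02), and the peak across the start, chr1:172987024-172991929, held 392.3 in the KO against 474 in the WT (-0.27, -0.52 to -0.02). Summed H3K4me1 was 715.5 in the KO against 859 in the WT, a change of -0.27 (-0.47 to -0.07), nearly all of it in the gene body at chr1:172977447-172988083, where the KO held 649 and the WT 785. Both intervals lay below 0 also against genes of similar signal, at -0.29 for H3K27ac and -0.32 for H3K4me1. Neutrophil markers, of which 10 of 12 had H3K27ac peaks, summed to 16431 in the KO against 17228 in the WT for that mark (log2 -0.07). Summed H3K36me3 was 1009 in the KO against 959 in the WT, with a change of 0.07 (-0.06 to 0.20) that was not detectable at this depth.

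Fcgr4 encodes an activating receptor of mouse neutrophils and monocytes that binds IgG2 subclasses. H3K4me3 over its start and body, a peak of 12.8 kb at chr1:172946519-172959321, differed by less than counting error, with 543 normalized reads in the KO library against 525 in the WT library (0.03, -0.18 to 0.25). The gene's sum, 1513 in the KO against 1254 in the WT, had a change of 0.25 (0.12 to 0.39), since it also counts intergenic peaks. H3K27ac summed to 1006 in the KO against 958 in the WT (0.07, -0.10 to 0.24). H3K4me1 summed to 1277 in the KO against 1250.1 in the WT (0.02, -0.14 to 0.19). H3K36me3 summed to 921.3 in the KO against 920.6 in the WT (-0.01, -0.14 to 0.13). The 3 marks other than H3K4me3 thus had changes whose intervals hold 0.

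Between Fcgr4 and Fcgr3, 3 intergenic peaks carried more H3K4me3 in the KO. The peak at chr1:172962719-172964557 held 323 normalized reads in the KO library against 242 in the WT library, a change of 0.40 (0.09 to 0.72). The next, chr1:172966171-172969077, held 436 in the KO against 329 in the WT (0.39, 0.12 to 0.66). The last, chr1:172974158-172975465 and annotated to Fcgr3, held 249 in the KO against 181 in the WT (0.44, 0.08 to 0.81). Against peaks of similar signal the changes were 0.31, 0.36 and 0.30, and the interval of the last, -0.05 to 0.68, then held 0. Their H3K4me3 was dense, between 149.8 and 190.05 per kb in the KO and between 113 and 139 in the WT, above the Fcgr3 start peak with 128 in the KO and 112 in the WT. Together the 3 peaks, grouped after their values were seen, summed to 1007 in the KO against 753 in the WT, a change of 0.40 (0.23 to 0.58). Other marks in the same gap had intervals that hold 0, with H3K27ac at 182 in the KO against 193 in the WT (-0.08, -0.46 to 0.31) and H3K4me1 at 241 in the KO against 282 in the WT (-0.23, -0.57 to 0.13). Fcgr4 without the peaks past its end had 755 in the KO against 682 in the WT (0.13, -0.06 to 0.32). In the RefSeq gene order of GRCm38.p6, 5 tRNA genes and the long non-coding RNA Gm35090 lie between Fcgr4 and Fcgr3. Whether the peaks cover them was not tested, since the coordinates are of another build.

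**Figure D4:**
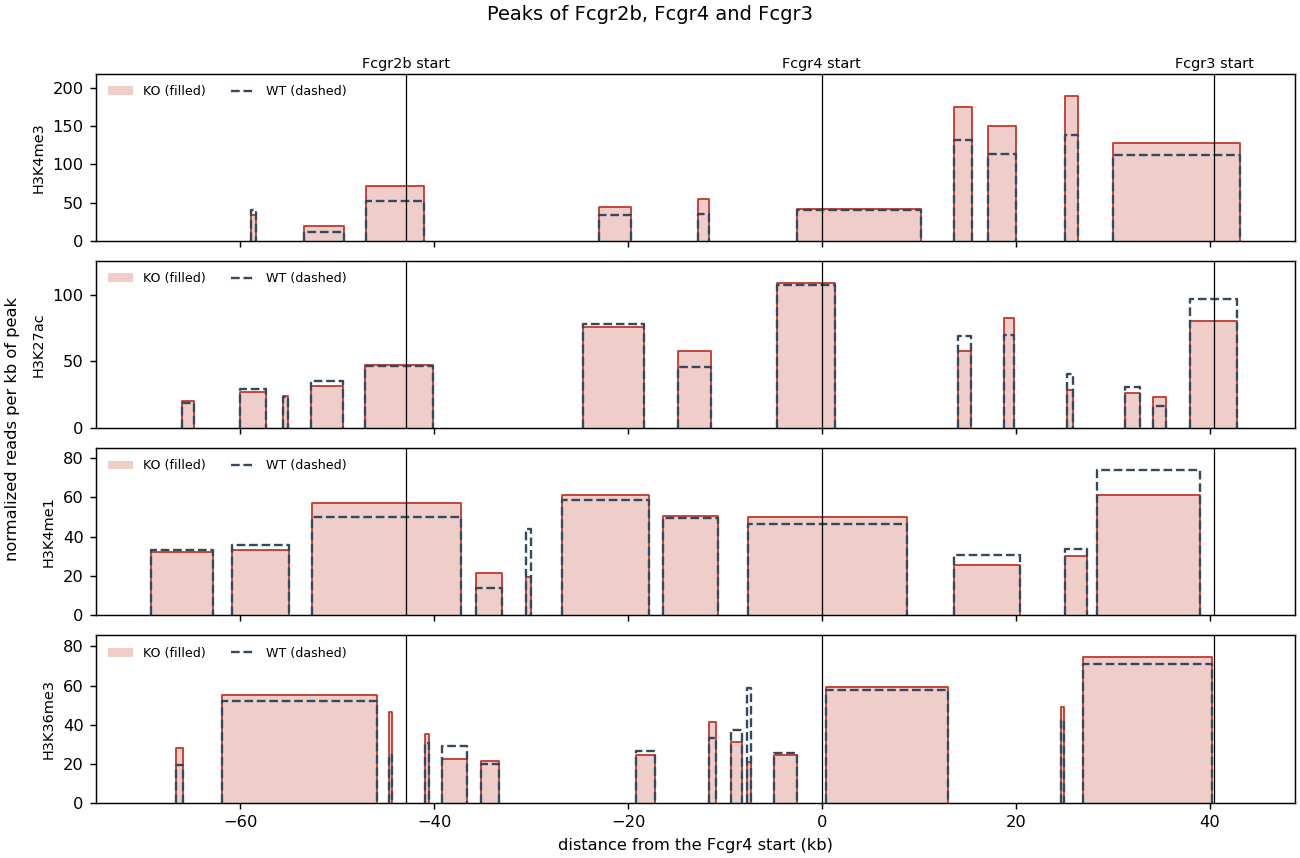
Peaks annotated to Fcgr2b, Fcgr4 and Fcgr3 by distance from the Fcgr4 start in kb, with height as normalized reads per kb of peak (KO filled, WT dashed) and vertical lines at the starts. The 3 intergenic H3K4me3 peaks between Fcgr4 and Fcgr3 stand higher in the KO, while the H3K27ac peak across the Fcgr3 start and H3K4me1 over the Fcgr3 body stand lower.

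Fcer1g encodes the gamma chain that the activating receptors need for assembly at the surface and for signalling. Its single H3K4me3 peak, chr1:173156154-173165908, spans the whole start region in 9.755 kb and held 1269 normalized reads in the KO library against 1196 in the WT library, a change of 0.07 (-0.07 to 0.21). H3K27ac at chr1:173160178-173166011 was 680.5 in the KO against 672 in the WT (0.02, -0.19 to 0.22). With 508 and 244 WT reads behind them, these are among the better measured values of the group, and both counting intervals lie within 1.5-fold. This holds for counting error between these 2 libraries only, not for spread between animals. Summed H3K4me1 was 137 in the KO against 132 in the WT, from 39 WT reads, in 2 peaks that lie outside the gene body.

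The H3K36me3 peak annotated to Fcer1g does not lie in the gene. It is counted with Fcer1g in the group counts, medians and plots, which go by annotated gene name, and is not described further. The H3K36me3 peak over the Fcer1g body, chr1:173155362-173164221, is annotated to Apoa2 instead and held 426 in the KO against 433 in the WT, a change of -0.03 (-0.23 to 0.16). An H3K4me1 peak over the body, chr1:173155844-173161980, was likewise annotated to Apoa2 and held 317 in the KO against 285 in the WT (0.14, -0.19 to 0.49). No mark over Fcer1g itself therefore had an interval that left out 0.

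Fcgr2b encodes the inhibitory receptor and had the highest H3K4me3 change of the group, with an interval that overlaps those of the 4 other genes with this mark. Its 3 peaks summed to 522 normalized reads in the KO library against 377 in the WT library, a change of 0.46 (0.21 to 0.71), and 0.40 (0.16 to 0.66) against genes of similar signal. Its change ranked 193 among 9025 genes with a sum at or above the median. The peak across the start, chr1:172902074-172907985, held 424 in the KO against 311 in the WT (0.43, 0.16 to 0.72). A weaker peak in intron 3 of NM_010187, chr1:172895649-172899739, held 82.4 in the KO against 47.1 in the WT (0.78, 0.11 to 1.55), from 20 WT reads. The peak at the gene's end held 15.6 in the KO against 18.8 in the WT, from 8 WT reads. Against peaks of similar signal the start peak had 0.39 (0.12 to 0.68) and the intron peak 0.54 (-0.13 to 1.31), an interval that holds 0. The sum rests on 160 WT reads.

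B cells use Fcgr2b as their Fc gamma receptor. Of 7 B cell markers 5 had H3K4me3 peaks, with none at Cd79a, and these summed to 759 in the KO against 551 in the WT (log2 0.45). Their part in the Fcgr2b value was not tested. Of the monocyte and macrophage markers 7 had H3K4me3 peaks, with none at C1qa. The list of 9 symbols names 1 gene by both its symbols, Emr1 and Adgre1, and its peaks stand under Emr1. The 7 genes summed to 3596 in the KO against 3323 in the WT (log2 0.10). Ly6c2 alone held 2745 of this in the KO and 2408 in the WT, and the median change of the 7 genes was -0.03.

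The changes of the other marks at Fcgr2b had intervals that hold 0. H3K27ac was 1021 in the KO against 1046 in the WT (-0.04, -0.20 to 0.13), and H3K4me1 was 1894 in the KO against 1783 in the WT (0.08, -0.05 to 0.22). H3K36me3 was 1028 in the KO against 979.7 in the WT (0.06, -0.07 to 0.19). An intergenic H3K27ac peak 21.4 kb before the Fcgr2b start, chr1:172924427-172930727, held more than the start peak. It had 478 normalized reads for the KO library and 493 for the WT library, which are part of the Fcgr2b sums of 1021 and 1046. An H3K4me3 peak inside it, chr1:172926059-172929398, is annotated to Fcgr4 instead, with its centre 21.3 kb before the Fcgr4 start. Distance thus hardly separates both genes here, and which of them the H3K27ac peak belongs to was not tested. Across the Fcgr2b start itself, H3K27ac was 329 for the KO library and 325 for the WT library. Fcgr2b and Fcgr3 have nearly the same sequence in their extracellular parts. The sources used here do not say how reads that match both were placed, so values over those exons are uncertain for both genes.

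Fcgrt, the neonatal receptor on chromosome 7, was barely marked. Its H3K27ac peak of 319 bases, chr7:52359182-52359500, held 6.77 normalized reads in the KO library against 24.8 in the WT library, a change of -1.73 (-3.28 to -0.42). This value rests on 11 KO and 9 WT reads. Peaks of 3 marks in intron 4 of its transcript NM_010189 were annotated to Rcn3 and did not go the same way. There H3K27ac was 30.8 in the KO against 16.5 in the WT, H3K4me3 was 16.2 in the KO against 16.5 in the WT, and H3K4me1 was 50.9 in the KO against 50.96 in the WT. With peaks assigned by transcript, the H3K27ac change of Fcgrt was -0.14 and no longer reached 1.5-fold.

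Of all 73 peaks, 8 passed 1.5-fold upwards in the KO and 5 downwards, and 12 of these 13 had fewer than 25 WT reads. The exception was the distal H3K4me3 peak of Fcgr1. By mark, the counts higher and lower were 4 and 1 of 18 for H3K4me3, beside 17.7% and 26.9% of all its peaks. They were 0 and 2 of 20 for H3K27ac, beside 15.6% and 23.5%. H3K4me1 had 3 and 1 of 20, beside 14.1% and 18.4%, and H3K36me3 had 1 and 1 of 15, beside 12.5% and 9.86%. Intervals lay above 0 at 9 peaks, 8 of them H3K4me3, and below 0 at 4. The other peak above 0 was of H3K36me3, beside 4.32% of all its peaks. Intervals below 0 numbered 2 of 20 for H3K27ac, beside 4.11%, and 1 of 20 for H3K4me1, beside 2.18%. They numbered 1 of 15 for H3K36me3, beside 9.82%, and 0 of 18 for H3K4me3, beside 2.91%. Against peaks of similar signal, intervals lay above 0 at 5 peaks, 4 of them H3K4me3. Over all H3K4me3 peaks, 7.69% of intervals lay above 0, and 3.36% against peaks of similar signal. Of the peaks, 43 were intergenic and 14 spanned a start. Of the 73 peaks, 66 overlapped a peak of another mark and 32 overlapped all 3 other marks. The share over all peaks was not computed, so this overlap is not shown to be particular to these genes.

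**Figure D5:**
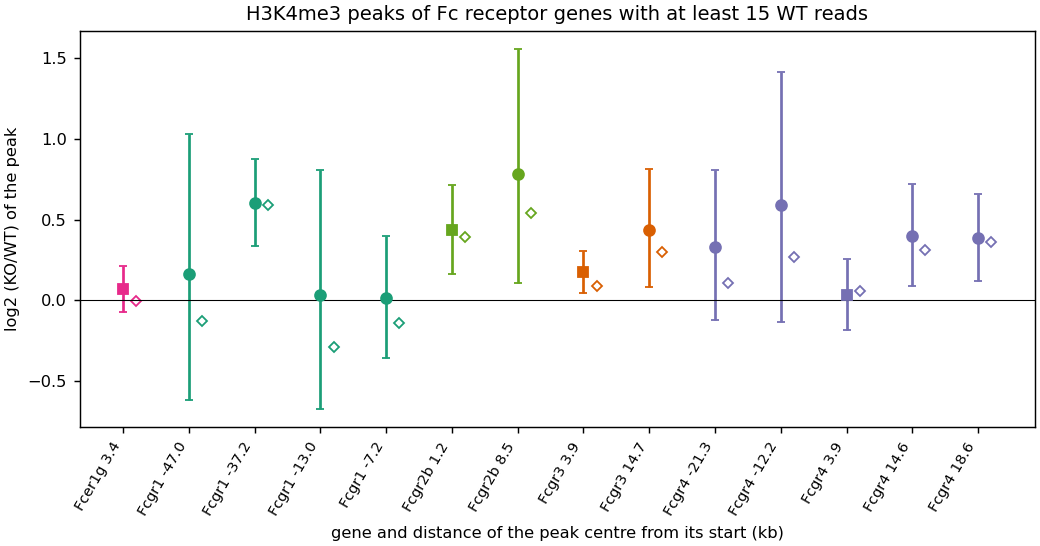
Change of each H3K4me3 peak with at least 15 WT reads (14 of 18), log2(KO/WT), named by gene and distance of its centre from the start in kb, with 95% counting intervals. Squares span the start, circles do not, and open diamonds are centred on peaks of similar signal. All 14 points lie above 0, as do 15 of all 18 peaks when those with fewer WT reads are counted. Over all H3K4me3 peaks with a signal at or above the median, the median change was 0.14. With the second centring the points of Fcgr1 at -47.0, -13.0 and -7.2 kb fall below 0 and that of Fcer1g falls to -0.00064.

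In a list of 48 further genes of the Fc receptor pathway, no gene with at least 50 WT reads was 1.5-fold higher or lower in any mark. The list held 22 kinases and adaptors, 12 inhibitors and 14 other immunoglobulin-binding or Fc receptor-like genes, of which 40 had H3K4me3 peaks, 41 H3K27ac, 41 H3K4me1 and 40 H3K36me3. Genes past 1.5-fold, upwards and downwards, numbered 0 and 1 for H3K4me3, 1 and 0 for H3K27ac, 1 and 0 for H3K4me1, and 3 and 1 for H3K36me3. The genes were Fcrl5 in 3 marks, Fcrl6, Fcrl1, Btk and B2m, named after their values were seen, and none had 50 WT reads. Over all genes, 7.97% and 11.4% passed 1.5-fold upwards and downwards for H3K4me3, and 5.33% and 15.5% for H3K27ac. The shares were 4.24% and 11.2% for H3K4me1, and 5.68% and 3.11% for H3K36me3. Among genes at or above the median sum, the largest share was 0.72%, so the lack of such genes is not shown to be particular to the pathway. Median changes were 0.14, 0.08, -0.01 and 0.02 in the same order of marks. For H3K4me3, 12 of 40 intervals lay above 0 and 2 below. The share of intervals over all genes was not computed, and 60.2% of all genes had an H3K4me3 change above 0.

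The genes of that list with the highest WT signal per kb, 2 per mark, differed in direction. A choice by the WT value can by itself lower the change from WT to KO. Plcg1, a phospholipase activated below the receptors, had 475 normalized H3K4me3 reads in the KO library against 654 in the WT library (-0.48, -0.68 to -0.27). Plcg1 H3K27ac went the other way, with 232 in the KO against 176 in the WT (0.39, 0.01 to 0.80). The Plcg1 intervals of H3K4me1 and H3K36me3 held 0. Tyrobp, an adaptor with the same kind of tyrosine motif as the gamma chain, had 621 in the KO against 818 in the WT for H3K27ac (-0.40, -0.59 to -0.21). Its H3K4me1 was 639 in the KO against 754 in the WT (-0.25, -0.46 to -0.03). Dok3, an inhibitory adaptor, had 682 H3K27ac reads in the KO library against 562 in the WT library (0.28, 0.06 to 0.50), and near-equal H3K4me1, 649.8 in the KO against 648.8 in the WT. Trim21, a cytosolic antibody receptor, differed by less than counting error in H3K4me3, at 225 in the KO against 212 in the WT. Vav1 and Rac2, which link the receptors to the cytoskeleton, had near-equal H3K36me3, with 3419 in the KO against 3342 in the WT for Vav1 and 1112 in the KO against 1079 in the WT for Rac2.

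Over the 8 libraries, the genes whose summed values lay nearest to each member were found among 10715 genes with a peak in every table, by Euclidean distance of log2 values. They were Cd300lb (0.45) and Sipa1 (0.64) for Fcgr3, and 1600014C10Rik (0.33) for Fcgr4. For Fcgr2b they were Ccdc80 (0.43) and Lclat1 (0.59). For Fcer1g they were Trp53 (1.04) and B4galt3 (1.08), distances that use H3K4me1 and H3K36me3 peaks lying outside the gene. Fcgr1 and Fcgrt lack a peak in at least 1 table and were not compared.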

How the data were processed

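Sorted neutrophils gave 8 ChIP libraries, 1 per mark and genotype; 2 libraries titled as input DNA were not used. The submitters' processing notes name, without order or settings, build mm9, Bowtie2 2.2.3, MACS2 2.1.0, HOMER and DiffBind, besides R 3.1.1, bcl2fastq 2.16.0 and Trimmomatic 0.32. The authors deposited, per consensus peak, a normalized read signal for KO and WT. The deposited log2 column equals the log2 ratio of both signals (largest gap 4.84e-08). In every column 100% of signals were whole multiples of the lowest value within 0.01 of a read, so whole reads were recovered; no value lies below 1 read, so 0 reads and 1 read cannot be told apart.

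Signals were summed per annotated gene name. Changes are log2((KO + 1)/(WT + 1)) minus the median over all peaks of the mark, or minus the running median over 501 genes or 1001 peaks of similar mean signal. Recovered reads gave exact 95% binomial intervals (Clopper-Pearson). A change of at least 1.5-fold was counted, with no test, since edgeR or DESeq2 has no residual degrees of freedom here. Peak coordinates are mm9, 1-based; the starts of the genes were derived from the deposited distances. Promoters are RefSeq's, in GRCm38.p6, and all 6 genes matched by symbol. Named genes were all 6 members; of the pathway list, per mark, those past 1.5-fold with at least 50 WT reads and the 2 with the highest WT signal per kb; per member, the 2 nearest genes by pattern; and Gm14005. Some genes under this rule and in the marker lists are not reported here. The members, the lists and this rule were chosen with earlier results of these data known. The steps were tested on simulated data. Alternatives were other pseudocounts, centrings, depths, peak subsets and folds. Computations ran in scipy 1.17.1, pandas 2.3.3 and numpy 2.4.6 under Python 3.11.15, and figures were drawn with matplotlib 3.10.9.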

Additional observations from a re-analysis of the deposited data

How the results depend on the processing

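No paired analysis was possible because each mark has 1 library per genotype, and for the same reason no replicate could be left out. Of 176 alternative values of member genes, 7 moved beyond their counting interval and 0 changed sign as a called value, and the 365 alternative values of member peaks stayed within theirs. Counts of members past 1.5-fold moved in 4 cases: H3K4me3 went to 1 with peaks within 5 kb of a start or with the strongest peak of each gene, by the Fcgr1 values of 1.54 and 0.60, and H3K27ac went to 0 with peaks at or above the median signal or assigned by transcript, an alternative added after the data were seen. The Fcgr4 H3K4me3 change was 0.03 within 5 kb of the start and with the strongest peak, the Fcer1g H3K36me3 change was -0.03 by transcript, and the Fcgr2b H3K36me3 change was -0.17 within 5 kb. For the pathway list, the H3K4me3 count was 0 with the running median, with the KO thinned to the WT depth and above the median signal, and 2 within 5 kb or with the strongest peak. Its H3K27ac count was 0 with a pseudocount of 5 or the running median and 3 after thinning, its H3K4me1 count 2 within 5 kb or with the strongest peak, and its H3K36me3 count 0 above the median signal. Depth limits the 28 member peaks with fewer than 20 WT reads.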
